A study of Rattus norvegicus with 12 samples.

Results

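The genes described here are the receptor-level parts of Wnt signalling: the secreted Wnt ligands, the R-spondins that amplify them, the Frizzled receptors and the co-receptors Lrp5 and Lrp6. A gene was taken when its name on the array was Wnt, Fzd or Rspo followed by a digit, or Lrp5 or Lrp6, which gave 51 probes for 35 genes out of 35010 named genes. They comprised 19 Wnt ligands, 10 Frizzled receptors, 4 R-spondins and the 2 co-receptors, each read from the probe with the highest mean signal over the 12 arrays. RNA came from rat calvarial bone, the skull vault, 6 h after surgery on animals aged 10 weeks, and 3 groups had 4 arrays each. Laser bone carried a rectangular defect of 8 by 3 mm, ablated with 3 strokes of an Er:YAG laser, an infrared laser absorbed by water, at 127 mJ per pulse and 20 Hz. Bur bone carried a defect of that size, cut with a rotating bur in a few strokes. Control bone had its periosteum taken off and stayed uncut. Strain and sex are not given in the sources used here.

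Wnt proteins are secreted lipid-carrying ligands that bind a Frizzled receptor. Binding together with Lrp5 or Lrp6 stabilises beta-catenin, which acts with TCF and LEF factors in the nucleus, while other ligand and receptor pairs, such as Wnt5a with the receptor kinase Ror2, act without it. R-spondins bind Lgr receptors and the ligases Znrf3 and Rnf43, which otherwise remove Frizzleds from the cell surface. In bone, beta-catenin signalling is known to favour bone formation, and human LRP5 loss causes low bone mass.

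Signals are log2 values of background-subtracted array intensity relative to the 75th percentile of the same array, so 0 is that percentile, and levels of different probes are not compared. On the 12 arrays 67.8% to 73.7% of the non-control spots were well above background, 75th percentile signals lay between 197.2 and 383.2, and 0 spots were saturated. Whether the 4 samples of a group were separate animals is not stated, so the p-values rest on a spread between samples that may be technical, and the number of arrays limits the precision. The 4 control arrays lay on 1 slide, and 2 other slides carried 2 laser and 2 bur arrays each. In each comparison with control, slide, scan or array preparation therefore cannot be told apart from treatment. The spike-in signal, unscaled, exceeded that of the control arrays by 3.21 log2 units on treated arrays.

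Probe sequences are shown for 4 genes whose values depended on the probe or on its background. They are the array's 60-base probes with coordinates of the array design on rat build RGSCv3.4, written 5′ to 3′ in the sense of the transcript. The first Wnt2 probe (chr4:43687315-43689474, minus strand) covered 2160 genomic bases with 60 bases of sequence, so it crosses at least 1 intron, and the second (chr4:43682205-43682264, minus strand) was contiguous. These are the probes that moved in opposite directions.
Wnt2, probe used: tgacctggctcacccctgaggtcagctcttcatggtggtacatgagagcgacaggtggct
Wnt2, second probe: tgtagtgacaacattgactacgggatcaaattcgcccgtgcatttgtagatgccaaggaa
The Wnt7b probe (chr7:123534116-123534175, minus strand) is shown because its capitals mark the bases that encode the conserved motif around the serine to which Porcn attaches the lipid of a Wnt protein.
Wnt7b: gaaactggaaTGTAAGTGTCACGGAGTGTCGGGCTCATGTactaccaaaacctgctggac
The Fzd7 probe (chr9:58065761-58065820, plus strand) and another Fzd8 probe (chr17:65970974-65971033, plus strand) each ended at the stop codon of the reading frame, in capitals, and are shown because Fzd7 was not above background in control bone and this Fzd8 probe differed from the other Fzd8 probes.
Fzd7: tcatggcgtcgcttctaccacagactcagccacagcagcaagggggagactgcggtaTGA
Fzd8, stop-codon probe: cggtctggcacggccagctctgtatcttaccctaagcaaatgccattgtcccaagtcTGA

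Transcripts of most tested Wnt ligands, most tested Frizzled receptors and both Lrp co-receptors were called higher in laser-ablated and in bur-drilled bone than in control bone. R-spondins did not pass the test in either. Several of these calls depended on the processing, and that of Lrp6 held in 15 of 26 alternative settings in laser and 17 of 26 in bur bone. Those of Wnt2, Wnt7b and Fzd7 give no support, for the reason given below. Of the 35 genes, 28 passed the filter, a call of well above background by the scanner software on 4 or more arrays, and 7 did not. Against control, 17 of the 28 tested genes were higher and 0 lower in laser bone, where 32.2% of the 22977 tested genes of the array were higher and 17.6% lower. In bur bone 18 were higher and 0 lower, against 32.7% and 18.3% of all tested genes. These comparisons ask what changed in bone within 6 h of being cut, and the tests were limma fits over all genes with Benjamini-Hochberg adjustment at 0.05. The median log2 fold change of the 28 was 0.87 in laser bone, against 0.21 over all tested genes, and 0.94 in bur bone, against 0.23. These medians and shares move with the scaling. Cyclic loess, added after seeing the data, put the median of all genes at 0.025 and 0.055 and that of the 28 at 0.77 and 0.82 in laser and bur bone. It moved the share of higher calls among all called genes to 50.6% and 50.5%, against 64.7% and 64.2% here. Normexp background correction, run with an offset of 50 signal units added before the log, moved the 28 more. The highest treated signals of Wnt7b and Fzd7, 28.2 and 44.9, were below that offset. How much came from the correction and how much from the offset was not tested. With this setting, called normexp below, the median of the 28 was 0.35 in laser and 0.24 in bur bone, against 0.028 and -0.0078 over all tested genes. Of the 17 laser calls 12 were kept and of the 18 bur calls 11, and the log2 fold changes of 10 laser and 11 bur calls were smaller by a factor over 1.5. Calls fell over all tested genes too, to 39.0% in laser and 40.9% in bur bone, against 49.8% and 51.0% here. Of those normexp calls, 55.8% in laser and 51.6% in bur bone were higher. Both comparisons use the same 4 control arrays, so their results are given side by side and are not independent. Between laser and bur bone 0 of the 28 passed that test, and 0 had an unadjusted p under 0.05.

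The 28 were not a fixed sample of the family, because a gene could pass the filter through its treated arrays alone. Wnt2, Wnt7b and Fzd7 passed although 0 of 4 control arrays were above background, so they had to lie higher in treated bone. Their calls give no support of their own, though they stay in the counts and medians of the tested genes. Fzd9 and Wnt9b were above background on 1 and 2 control arrays, too few to pass without their treated arrays. The Fzd9 call in bur bone and the Wnt9b call in laser bone, each with 4 of 4 arrays above background, likewise give no support. Above background on all 12 arrays were 20 genes, and 13 of these 20 were higher in laser bone and 14 in bur bone. Over all genes, 17997 were above background on all 12 arrays. In a fit of these alone, 51.9% were called in laser and 53.5% in bur bone, and 62.2% and 61.1% of those calls were higher. Groups did not overlap, with every treated array above every control array, for 14 genes in laser bone (30.9% of all tested genes) and for 18 in bur bone (30.4%), and 0 genes lay below control without overlap (17.7% and 15.7% of all). Dim genes lay higher on treated arrays, where the median log2 fold change over the 20% of genes with the lowest signal was 0.56 in laser and 0.69 in bur bone, against 0.0078 and 0.022 in the middle 20%. The 8 Wnt and receptor genes in that lowest class, Wnt2, Wnt7b and Fzd7 among them, had medians of 0.79 in laser and 0.88 in bur bone. The 5 in the middle class had 1.13 and 1.08. In bulk RNA, more cells of a type and more RNA per cell cannot be told apart, which holds for every value here.

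**Figure D1:**
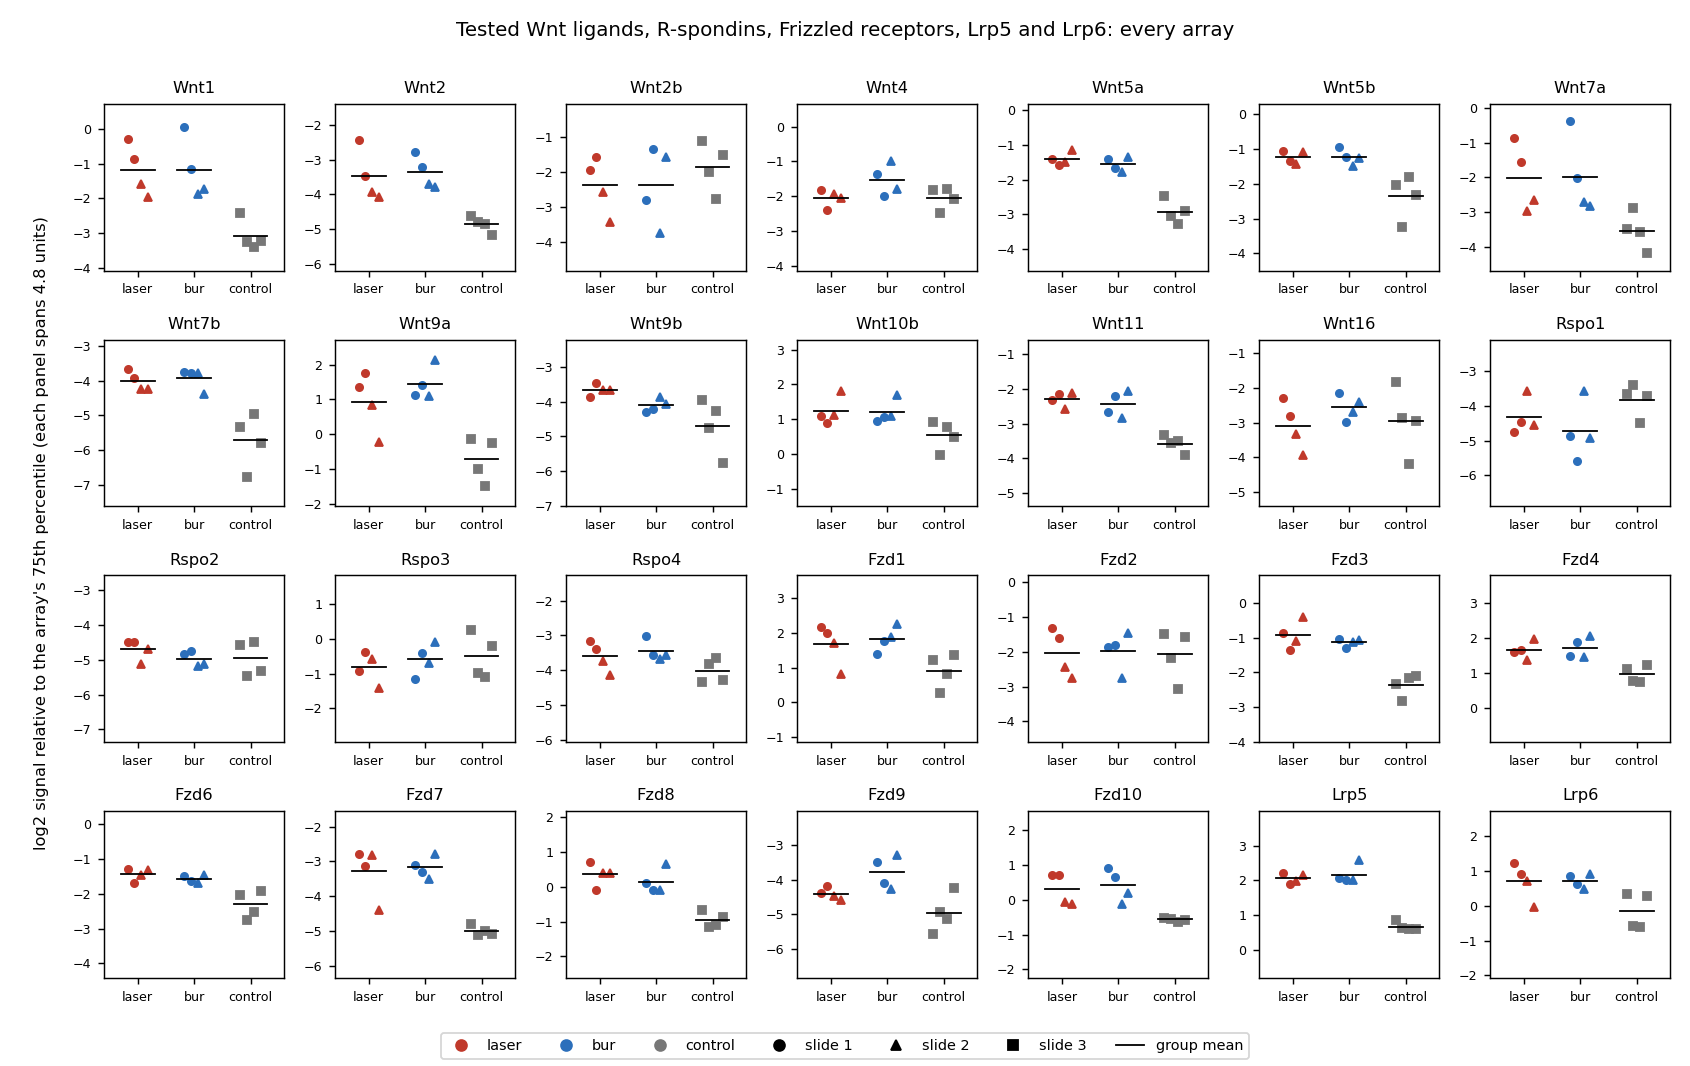
Signal of the 28 tested genes on every array (y axis, log2 relative to the array's 75th percentile, each panel spanning 4.8 units), with laser, bur and control from left to right, marker shapes for slides and a black line at the group mean of 4 arrays. Every treated array lies above every control array for Lrp5, Wnt5a, Wnt11 and Fzd3, whereas the R-spondin groups overlap.

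Among ligands that signal through beta-catenin, Wnt1 and Wnt9a rose in both kinds of wound. Wnt2 and Wnt7b were called in both too, but were not above background in control bone. Their calls depended on the probe or on the background correction with its offset. Human WNT1 mutations cause osteogenesis imperfecta, Wnt7b promotes osteoblast differentiation in mice, and Wnt9a acts in joint formation in mice. Of the 13 tested Wnt ligands, 9 were higher in laser and 8 in bur bone (32.2% and 32.7% of all tested genes). Of the 11 above background on a control array, 7 were higher in laser and 6 in bur bone. These 11 include Wnt9b, above background on 4 laser, 3 bur and 2 control arrays, whose laser call gives no support of its own. Median log2 fold changes of the 13 ligands, Wnt2 and Wnt7b included, were 1.29 in laser and 1.14 in bur bone. Wnt1 measured -0.29, -0.86, -1.60 and -1.98 on the laser arrays and 0.053, -1.15, -1.88 and -1.74 on the bur arrays, against -2.42, -3.25, -3.41 and -3.21 on the control arrays. All 8 treated arrays lay above the control arrays, and the first laser and first bur array were the highest of their groups. The log2 fold change was 1.89 (SE 0.46, adjusted p = 0.00684) in laser and 1.89 (SE 0.46, adjusted p = 0.00675) in bur against control, a 3.71-fold difference in both. With normexp it was 0.92 in laser and 0.87 in bur bone and still passed (adjusted p = 0.0292 and 0.0366).

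Wnt9a measured 1.35, 1.77, 0.83 and -0.22 on laser arrays and 1.11, 1.42, 1.101 and 2.13 on bur arrays, against -0.13, -1.01, -1.49 and -0.26 on control arrays. The fourth laser array lay inside the control range, while the bur and control arrays did not overlap. Wnt9a rose by 1.66 (SE 0.44, adjusted p = 0.0100) in laser and 2.17 (SE 0.44, adjusted p = 0.00263) in bur against control, 3.16-fold and 4.49-fold. With only the treated arrays of slide 2, which include that laser array, the Wnt9a difference in laser bone was 1.03 on the log2 scale and did not pass (adjusted p = 0.1498, limma).

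Wnt7b was dim, at -3.65, -3.92, -4.25 and -4.24 on laser arrays and -3.75, -3.77, -3.77 and -4.37 on bur arrays, against -5.34, -6.78, -4.95 and -5.80 on control arrays. It was above background on 3 of 4 laser, 4 of 4 bur and 0 of 4 control arrays, and the groups did not overlap. For such genes the fold is given against a control mean with a floor. Each control array counts with its own value or, if that is higher, with its dimmest probe that passed as above background. This is not a strict lower bound, since a probe could lie above that floor and not pass, as Fzd7 did in laser bone. Against that floor Wnt7b was 1.499-fold higher in laser and 1.61-fold higher in bur bone. Its calls (adjusted p = 0.00240 and 0.00179 by limma) give no support, because it passed the filter through treated arrays alone. With normexp background correction the log2 fold changes of Wnt7b were 0.012 in laser and -0.058 in bur bone, and neither passed. With the authors' deposited normalized values they were 0.13 and 0.18, and again neither passed. The laser call was also lost with the treated arrays of slide 2 alone (1.47, adjusted p = 0.0514, limma).

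Wnt2, a ligand of lung development in mice, measured -2.42, -3.45, -3.92 and -4.07 on laser arrays and -2.78, -3.20, -3.69 and -3.80 on bur arrays, against -4.61, -4.79, -4.85 and -5.16 on control arrays by the intron-crossing probe shown above. Groups did not overlap, 0 of 4 control arrays were above background, and against the floor Wnt2 was 2.20-fold higher in laser and 2.36-fold higher in bur bone. Its calls (adjusted p = 0.00746 and 0.00517, limma) likewise give no support, as this probe passed the filter through treated arrays alone. The second Wnt2 probe ran the other way. It measured -4.35, -4.70, -5.28 and -5.18 on laser arrays and -3.57, -4.22, -5.12 and -4.45 on bur arrays, against -3.41, -3.38, -3.40 and -3.96 on control arrays. That probe was lower in laser bone by a log2 fold change of -1.34 (adjusted p = 0.00544 over all probes, limma) and measured -0.80 in bur bone (adjusted p = 0.0517). Averaged over both probes Wnt2 had no call in either comparison, so its direction is uncertain.

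Wnt10b, a ligand that raises bone mass in mice, measured 1.08, 0.88, 1.12 and 1.82 on laser and 0.96, 1.06, 1.09 and 1.70 on bur arrays, against 0.93, -0.036, 0.77 and 0.48 on control arrays. The second laser array (0.88) lay below the first control array (0.93), and bur and control did not overlap. Its log2 fold change was 0.69 (SE 0.26, adjusted p = 0.0473) in laser and 0.67 (SE 0.26, adjusted p = 0.0526) in bur against control, so it passed in laser bone and just missed in bur bone. The laser call held in 7 of 27 alternative settings. It was lost without any 1 of 9 arrays (all but laser 2, bur 4 and control 1), with log2 fold changes of 0.49 to 0.77, and the bur value passed without laser 4 or control 1 (0.67 and 0.80). Wnt9b, which induces kidney tubules in mice, had log2 fold changes of 1.02 (adjusted p = 0.0210, limma) in laser and 0.58 (adjusted p = 0.145) in bur bone. Wnt7a, which patterns the limb in mice, had 1.51 (adjusted p = 0.0505) in laser and 1.55 (adjusted p = 0.0453) in bur bone, with means of -2.02 ± 0.97, -1.98 ± 1.12 and -3.53 ± 0.53 in laser, bur and control bone (SD, n = 4 each). The laser call of Wnt9b held in 19 of 26 alternative settings and was lost with normexp (-0.022, which turns the direction), the authors' deposited normalized values (0.17), cyclic loess (0.71), slide as a block and either slide alone (1.02 each). The bur call of Wnt7a held in 13 of 27. Leaving out 1 array ended the call of Wnt9b in laser bone (laser 2, 0.95) and of Wnt7a in bur bone (laser 2, bur 1 or 2, control 1, 3 or 4, with 1.02 to 1.57). It gave calls for Wnt7a in laser bone (without laser 3 or 4 or bur 1, 1.51 to 1.83) and for Wnt9b in bur bone (without control 1, 0.83). For none of these 3 genes did the difference between laser and bur pass, where adjusted p was 0.999 for Wnt10b, 0.880 for Wnt9b and 0.999 for Wnt7a by limma. Wnt2b did not pass in either comparison, at -0.53 in laser and -0.52 in bur bone (SE 0.58 each).

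The ligands known mainly for signalling without beta-catenin, Wnt5a, Wnt5b and Wnt11, rose in both wounds. Wnt5a measured -1.40, -1.57, -1.51 and -1.15 on laser arrays and -1.41, -1.68, -1.79 and -1.34 on bur arrays, against -2.47, -3.04, -3.29 and -2.92 on control arrays. The lowest treated array (-1.79) lay above the highest control array (-2.47), and the log2 fold change was 1.52 (SE 0.18, adjusted p = 2.06e-04) in laser and 1.37 (SE 0.18, adjusted p = 3.58e-04) in bur against control, 2.87-fold and 2.59-fold. With normexp it was 0.65 in laser and 0.53 in bur bone and still passed. A second Wnt5a probe moved in the same direction by 0.70 in laser and 0.55 in bur bone (adjusted p = 0.00941 and 0.0262 over all probes, limma). Wnt11, which guides cell movement in early vertebrate embryos, ranged over -2.58 to -2.11 on laser and -2.83 to -2.07 on bur arrays, against -3.89 to -3.34 on control arrays, and rose by 1.29 in laser and 1.14 in bur bone. With normexp Wnt11 had 0.35 in laser bone and 0.24 in bur bone, where it no longer passed (adjusted p = 0.159, limma). Wnt5b, the close relative of Wnt5a, measured -1.07, -1.34, -1.42 and -1.07 on laser arrays and -0.94, -1.21, -1.49 and -1.25 on bur arrays, against -2.03, -3.24, -1.81 and -2.33 on control arrays. The control arrays spread more widely than the treated ones, and the groups did not overlap. Wnt5b rose by 1.13 in laser and 1.13 in bur bone (SE 0.27 each), with 0.55 and 0.51 under normexp, and with the treated arrays of slide 2 alone it passed in neither. Wnt4 had -0.0043 in laser and 0.51 in bur bone, and Wnt16, a determinant of cortical bone thickness in mice, had -0.13 in laser and 0.41 in bur bone, with no call for either gene in the fit of all arrays. Wnt4 passed in bur bone without the second bur array (0.67, adjusted p = 0.0434, limma).

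**Figure D2:**
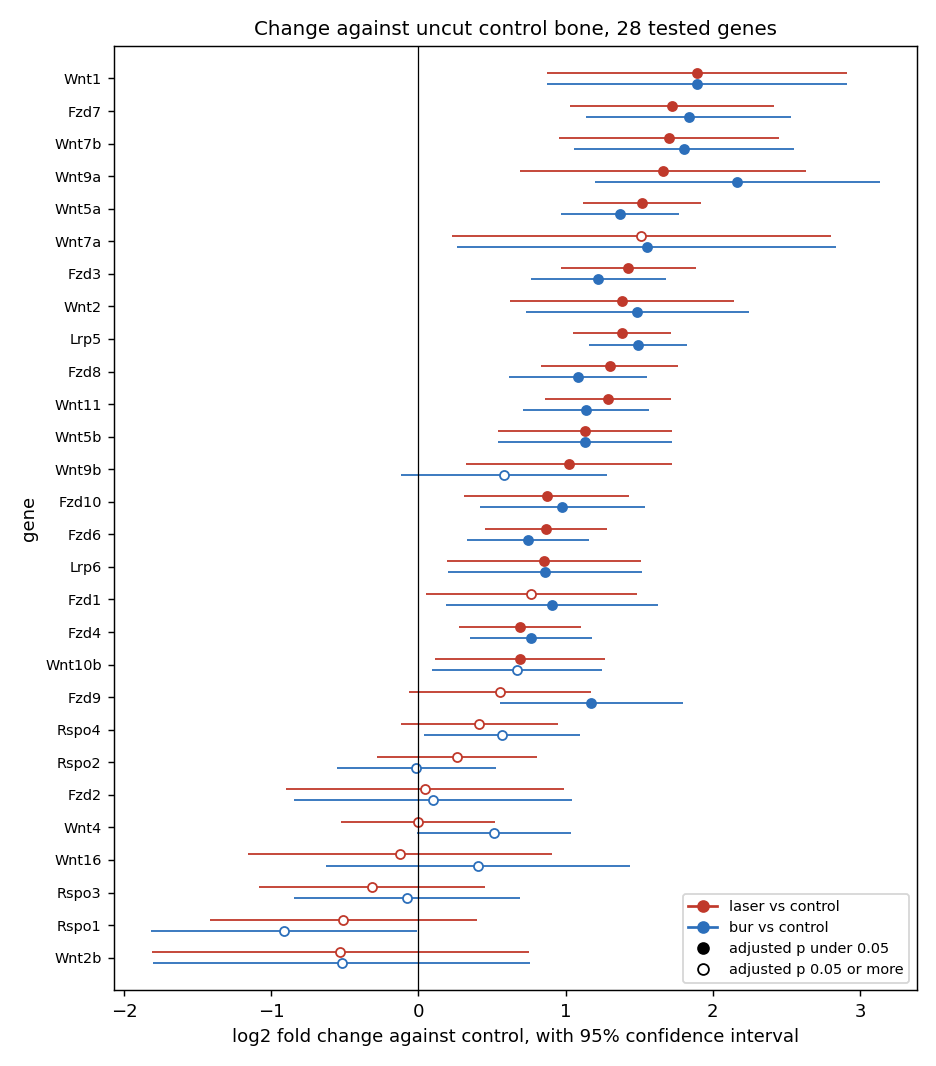
Log2 fold change against control with its 95% confidence interval (x axis) for the 28 tested genes (rows, ordered by the laser value), laser in red above bur in blue, filled where adjusted p was under 0.05. Wnt1 lies at 1.89 in both comparisons, and Wnt2b has the lowest laser value at -0.53.

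None of the 4 R-spondins passed in either comparison with control by limma, and whether they differ in this from the ligands and receptors was not tested. Their log2 fold changes spanned -0.51 to 0.41 in laser and -0.91 to 0.57 in bur bone. Rspo1 measured -4.75, -4.47, -3.57 and -4.54 on laser arrays and -4.87, -5.58, -3.57 and -4.92 on bur arrays, against -3.67, -3.41, -4.50 and -3.70 on control arrays. The second bur array was the lowest, and both treated groups overlapped the control range. Its values were -0.51 (SE 0.41, adjusted p = 0.316) in laser and -0.91 (SE 0.41, adjusted p = 0.0836) in bur against control, with an interval of -1.82 to -0.0072 in bur bone, and it likewise did not pass in 21 of 26 alternative settings. In the other 5, leaving out the third bur array among them (-1.30, adjusted p = 0.00967), it passed as lower in bur bone. Rspo3, whose human locus is associated with bone density, had means of -0.82 ± 0.46, -0.59 ± 0.46 and -0.51 ± 0.65 in laser, bur and control bone (SD, n = 4 each). Rspo2, needed for limb development in mice, was above background on 2 laser, 1 bur and 1 control array, so its fold changes of 0.26 in laser and -0.014 in bur bone rest mostly on background. Rspo4, whose human form is needed for nails, had 0.41 in laser and 0.57 in bur bone (adjusted p = 0.171 and 0.0694, limma), and it passed in bur bone without the fourth laser array (0.57) or the third control array (0.69).

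Of 9 tested Frizzled receptors 6 were higher in laser bone and 8 in bur bone (32.2% and 32.7% of all tested genes), with 0 lower. Of the 8 above background on a control array, 5 were higher in laser and 7 in bur bone. These 8 include Fzd9, above background on 2 laser, 4 bur and 1 control array, whose bur call gives no support of its own. The medians over the 9, Fzd7 included, were 0.86 in laser and 0.98 in bur bone. Fzd7, a stem-cell Frizzled of the mouse intestine, measured -2.79, -3.13, -2.81 and -4.40 on laser arrays and -3.10, -3.29, -3.49 and -2.79 on bur arrays, against -4.81, -5.12, -5.00 and -5.08 on control arrays. The fourth laser array was the lowest treated one, and it still lay above all control arrays. Fzd7 was above background on 3 laser, 4 bur and 0 control arrays. Against the floor described for Wnt7b it was 2.49-fold higher in laser and 2.70-fold higher in bur bone. Its calls (adjusted p = 0.00153 and 0.00115, limma) give no support either, as it passed the filter through treated arrays alone. With normexp correction the log2 difference was 0.25 in laser and 0.18 in bur bone, and neither passed.

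Fzd3 and Fzd6, which act in planar polarity of mouse axons and hair, both rose. Fzd3 ranged over -1.34 to -0.41 on laser arrays and -1.30 to -1.03 on bur arrays, against -2.81 to -2.10 on control arrays, with log2 fold changes of 1.43 in laser and 1.22 in bur bone (SE 0.21 each), or 0.73 and 0.58 with normexp. Fzd6 measured -1.30, -1.70, -1.47 and -1.30 on laser and -1.48, -1.63, -1.70 and -1.46 on bur arrays, against -2.03, -2.76, -2.52 and -1.91 on control arrays. No treated array overlapped a control array, and the log2 fold change was 0.86 (SE 0.19, adjusted p = 0.00370) in laser and 0.74 (SE 0.19, adjusted p = 0.00803) in bur against control. The Fzd6 value was 0.35 in laser and 0.24 in bur bone with normexp, and the bur call was lost then (adjusted p = 0.121, limma) and with slide 1 (0.76) or slide 2 (0.73) alone. Fzd4, the receptor for Norrin in retinal vessels, measured 1.60, 1.66, 1.37 and 1.97 on laser and 1.48, 1.88, 1.46 and 2.06 on bur arrays, against 1.103, 0.76, 0.74 and 1.23 on control arrays. Its groups also did not overlap, its calls were lost in both comparisons with slide 2 alone (0.71 in laser and 0.80 in bur bone), and it rose by 0.69 (SE 0.19, adjusted p = 0.0114) in laser and 0.76 (SE 0.19, adjusted p = 0.00696) in bur against control.

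Fzd1 measured 2.18, 2.01, 1.71 and 0.81 on laser arrays and 1.38, 1.77, 1.87 and 2.25 on bur arrays, against 1.21, 0.25, 0.83 and 1.35 on control arrays. The fourth laser array lay below 3 control arrays, while every bur array lay above them. Its log2 fold change was 0.77 (SE 0.33, adjusted p = 0.0711) in laser and 0.91 (SE 0.33, adjusted p = 0.0381) in bur against control, and the bur call held in 15 of 27 alternative settings. It was lost without bur 2, 3 or 4 or control 2 or 3 (0.69 to 0.92), and Fzd1 passed in laser bone without the fourth laser array (1.06, adjusted p = 0.0121). Fzd9, whose loss lowers bone formation in mice, had 0.55 in laser (adjusted p = 0.122) and 1.18 in bur bone (adjusted p = 0.00612, limma), and it passed in laser bone without the fourth control array (0.79). The bur call of Fzd9 was lost with quantile normalization (0.80), with normexp (-0.022, which turns the direction) and with slide 2 alone (1.18). The difference between laser and bur passed for neither Fzd1 nor Fzd9 by limma, with adjusted p = 0.986 and 0.765. Fzd10 rose by 0.87 in laser and 0.98 in bur bone, and its control arrays were tight at -0.63 to -0.52. Fzd2, which did not pass, had log2 fold changes of 0.046 (95% interval -0.90 to 0.99) in laser and 0.097 (-0.85 to 1.04) in bur bone.

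Fzd8, whose ligand-binding domain holds Wnt proteins tightly, was read by 3 probes above background on all 12 arrays. The probe used measured 0.71, -0.093, 0.41 and 0.40 on laser arrays and 0.10, -0.091, -0.089 and 0.64 on bur arrays, against -0.66, -1.17, -1.08 and -0.86 on control arrays, with log2 fold changes of 1.30 in laser and 1.08 in bur bone. A second probe moved alike, by 1.13 in laser and 1.22 in bur bone (adjusted p = 0.00681 and 0.00460 over all probes, limma). The third, which ends at the stop codon and is shown above, measured -0.21, -0.99, -0.71 and -0.90 on laser arrays and -0.38, -0.99, -0.87 and -0.44 on bur arrays, against -0.56, -1.36, -0.75 and -0.72 on control arrays. Its groups overlapped, its log2 fold changes were 0.15 in laser and 0.18 in bur bone, and neither passed (adjusted p = 0.611 and 0.537). Some other genes had further probes too dim to test. Those of Fzd6, Fzd10, Rspo2 and Wnt7a were above background on 0 of 12 arrays, those of Wnt1 and Rspo4 on 1 and that of Wnt9b on 3.

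**Figure D3:**
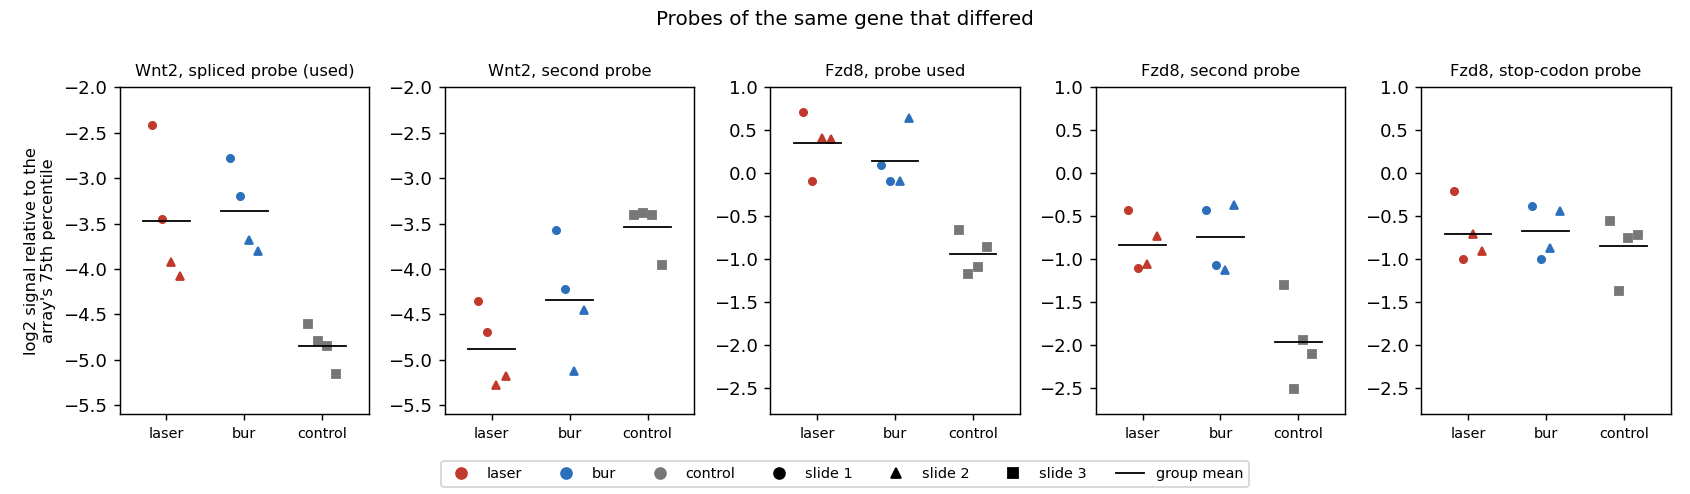
Signal on every array (y axis, log2 relative to the array's 75th percentile) for both Wnt2 probes and the 3 Fzd8 probes, with laser, bur and control from left to right, shapes for slides and lines at group means. Treated arrays lie above control on the intron-crossing Wnt2 probe and mostly below it on the second, and the Fzd8 probe at the stop codon shows overlapping groups.

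Lrp5, which had the smallest SE of the genes with full values, is the co-receptor whose human variants change bone mass and which sclerostin and Dkk1 block. Lrp5 measured 2.20, 1.89, 1.98 and 2.17 on laser arrays and 2.08, 2.00, 2.00 and 2.58 on bur arrays, against 0.86, 0.63, 0.60 and 0.61 on control arrays. The lowest treated array (1.89) lay above the highest control array (0.86). The log2 fold change was 1.38 (SE 0.15, adjusted p = 1.38e-04) in laser and 1.49 (SE 0.15, adjusted p = 1.49e-04) in bur against control, 2.61-fold and 2.81-fold, and the call held in 27 of 27 alternative settings in each comparison.

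Lrp6, the other co-receptor, measured 1.24, 0.93, 0.73 and -0.037 on laser arrays and 0.86, 0.64, 0.48 and 0.91 on bur arrays, against 0.35, -0.58, -0.60 and 0.29 on control arrays. The fourth laser array lay inside the control range, and the third bur array (0.48) lay just above the first control array (0.35). Its log2 fold change was 0.85 (SE 0.30, adjusted p = 0.0349) in laser and 0.86 (SE 0.30, adjusted p = 0.0332) in bur against control. Leaving out any 1 of 5 arrays ended the call in laser bone (laser 1, 2 or 3, control 2 or 3) and likewise in bur bone (bur 1, 2 or 4, control 2 or 3), with log2 fold changes of 0.68 to 0.85 and 0.70 to 0.88 without them and adjusted p up to 0.341 and 0.120 over all settings in laser and bur bone. The array carries the same 60-base Lrp6 sequence as 2 probes, and the second gave 0.78 in laser and 0.83 in bur bone, which is a technical repeat.

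The comparison of laser with bur bone asks whether the way of cutting mattered at 6 h, and it called 0 of the 28 genes where 0.00435% of all tested genes, 1 of 22977, was called by limma. Differences of laser minus bur ran over -0.62 for Fzd9 to 0.44 for Wnt9b, with a median of -0.043 against 0.011 over all tested genes. The smallest adjusted p was 0.765, and 6.52% of all tested genes had an unadjusted p under 0.05 where 0 of these 28 did. Laser and bur arrays did not overlap for 0 of the 28, against 2.06% of all tested genes with laser higher and 1.51% with laser lower. Fzd9 came nearest, at -4.39, -4.20, -4.48 and -4.59 on laser arrays and -3.50, -4.10, -4.26 and -3.31 on bur arrays, against -5.57, -4.93, -5.12 and -4.25 on control arrays. The third bur array of Fzd9 lay within the laser range, and the interval of the difference was -1.24 to 8.81e-05. Wnt4 differed by -0.52 (95% interval -1.04 to 0.0032). Intervals lay within 1 log2 unit of 0 for 18 of 28 genes, and the widest, that of Wnt7a, ran from -1.32 to 1.25.

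**Figure D4:**
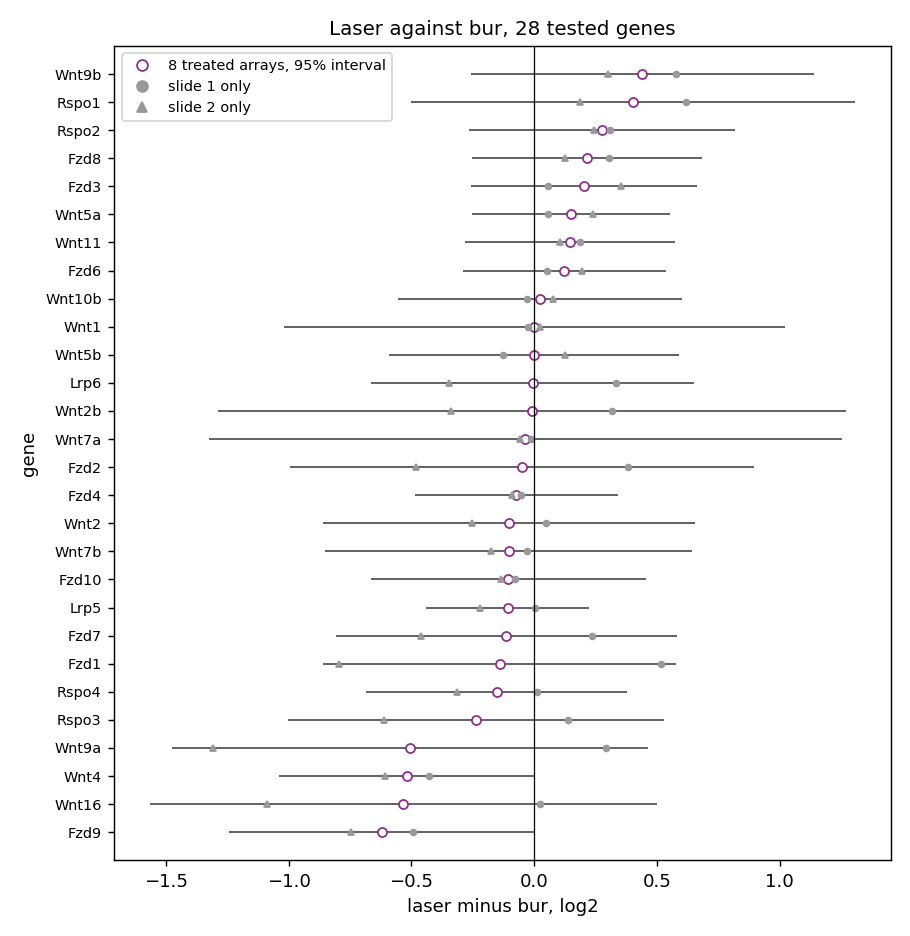
Laser minus bur on the log2 scale (x axis) for the 28 tested genes (rows), open circles with 95% confidence intervals over 8 treated arrays, and grey circles and triangles for slides 1 and 2 alone. No adjusted p was under 0.05, and Wnt9a lies at 0.29 on slide 1 and -1.31 on slide 2.

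Among the treated arrays, some of these genes differed between the 2 slides. With the slide of the treated arrays as a term in the limma fit, Fzd10, Wnt7a, Wnt1 and Wnt2 were lower on slide 2 than on slide 1, 4 of 28 genes, where 7.07% of all tested genes were lower and 1.11% higher. Wnt1 averaged -1.80 on slide 2 and -0.56 on slide 1 over 4 treated arrays each, a log2 difference of -1.24 (SE 0.29, adjusted p = 0.0279). Wnt7a differed by -1.57 (adjusted p = 0.0261), Wnt2 by -0.91 (adjusted p = 0.0321) and Fzd10 by -0.77 (adjusted p = 0.00158). For all 4 the treated arrays of slide 2 did not overlap those of slide 1. Within slides the laser minus bur difference of Wnt1 was -0.025 on slide 1 and 0.026 on slide 2. That of Wnt9a was 0.29 and -1.31, and that of Fzd1 was 0.52 and -0.80, opposite in sign on the 2 slides with 2 arrays a group on each.

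**Figure D5:**
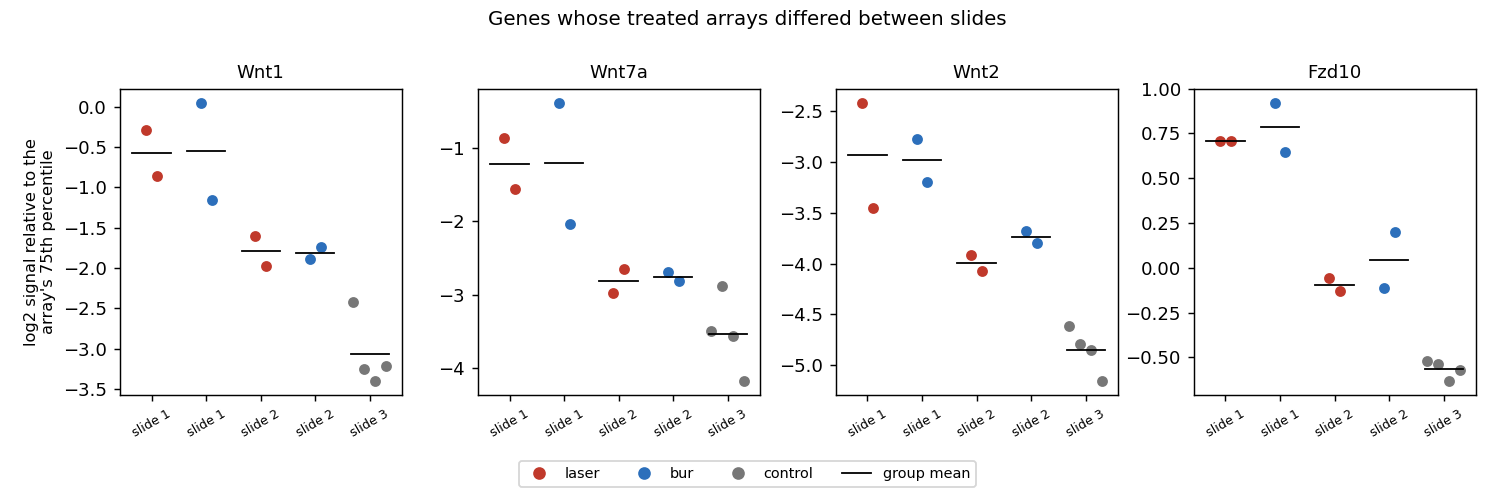
Signal (y axis, log2 relative to the array's 75th percentile) of the 4 genes whose treated arrays differed between slides, with laser and bur arrays of slide 1, then of slide 2, and the control arrays of slide 3 at the right, and lines at means. For Wnt1 and Fzd10 the slide 2 arrays lie between those of slide 1 and the control arrays.

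Of the ligand genes 8 sit next to another ligand gene in RefSeq's rat assembly GRCr8, with no other protein-coding gene between them, which forms 4 pairs. In the pair of Wnt1 and Wnt10b, both passed as higher in laser bone, by 1.89 and 0.69, but the Wnt10b call held in only 7 of 27 alternative settings. In bur bone Wnt1 passed and Wnt10b did not. In the pair of Wnt9b and Wnt3, Wnt9b passed in laser but not in bur bone. Wnt3 was not tested, being above background on 0 laser, 2 bur and 0 control arrays. In the pair of Wnt9a and Wnt3a, Wnt9a rose in both wounds. Wnt3a measured -4.32, -5.02, -4.78 and -5.91 on laser arrays and -4.80, -3.68, -4.64 and -4.67 on bur arrays, against -6.24, -6.73, -6.81 and -6.89 on control arrays, and was above background on 1, 2 and 0 of these. Its treated arrays all lay above the control arrays, but no test was made because of the filter. In the pair of Wnt6 and Wnt10a neither was tested. Wnt6 was above background on 0 laser, 1 bur and 2 control arrays, and Wnt10a on 0 of 12. The other untested genes were Wnt8a, above background on 0 of 12 arrays, Wnt8b on 1 control array and Fzd5 on 1 laser array.

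Promoter entries of RefSeq (GRCr8, 250 bases before to 50 after the start) matched 25 of the 35 genes. The GC box (GGGCGG, either strand) stood in 15 of these 25 promoters and in 33.1% of all 33469 promoters. Among the 15 were genes called in both wounds (Wnt1, Wnt9a, Fzd4 and Fzd10) and genes called in neither (Wnt4, Wnt2b and Rspo3). Of the 9 promoters of genes called higher in both, 5 had it. The TCF and LEF motif (CTTTGAT, either strand) stood in 0 of 25, against 3.63% of all, and the E-box (CACGTG) in 2, Wnt2b and Wnt9a, against 6.42%. These counts describe letters in a short window only.

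Around the receptors, the genes that make and release Wnt proteins, their receptors of other families and their intracellular relays moved in several directions. The counts of each list below stand beside 32.2% higher and 17.6% lower in laser and 32.7% higher and 18.3% lower in bur bone over all tested genes. Porcn, the enzyme that adds the lipid, rose by 1.19 (SE 0.15, adjusted p = 2.52e-04) in laser and 0.93 (adjusted p = 9.03e-04) in bur bone, 1 of 2 tested secretion genes. The other, the carrier Wls, had log2 fold changes of 0.10 in laser and 0.15 in bur bone. Of 9 tested other receptors and R-spondin partners, 6 were higher in laser and 7 in bur bone and 0 lower, with medians of 1.04 in laser and 0.96 in bur bone. Ror2, a Wnt5a receptor, rose by 1.89 in laser and 1.89 in bur bone (adjusted p = 1.05e-04 and 1.34e-04, limma), Ryk by 1.31 in laser and 0.82 in bur bone, and Ptk7 by 1.04 in laser and 0.998 in bur bone, the last 2 being Wnt-binding or co-receptor proteins with inactive kinase domains.

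Among 10 tested secreted antagonists, 4 were higher and 1 lower in laser bone, and 4 higher and 0 lower in bur bone, shares of higher calls near those of all genes, with medians of 0.41 in laser and 1.03 in bur bone. Dkk1, which blocks Lrp5 and Lrp6, rose by 1.49 in laser and 1.19 in bur bone (adjusted p = 2.04e-04 and 5.87e-04, limma). The Wnt-binding decoys Sfrp5 and Frzb rose by 2.02 and 1.30 in laser and by 1.89 and 1.23 in bur bone. The 1 lower gene, Sost, named after its values were seen, encodes sclerostin, an Lrp5 and Lrp6 inhibitor of osteocytes. Its log2 fold change was -0.80 in laser and 0.88 in bur bone, and the laser minus bur difference of -1.68 (SE 0.30) did not pass (adjusted p = 0.248).

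Of 15 tested Dishevelled and destruction-complex genes, 7 were higher and 2 lower in laser, and 7 higher and 1 lower in bur bone, with medians of 0.20 in laser and 0.28 in bur bone, near those of all genes. Dvl3, a relay below Frizzled, rose by 1.12 in laser and 1.17 in bur bone, Csnk1e, a kinase of the pathway, by 0.86 in laser and 0.76 in bur bone, and Amer1, a partner of the complex at the membrane, by 4.20 in laser and 3.15 in bur bone. Btrc, which marks beta-catenin for degradation, and Apc2 were the lower ones in laser bone, and Btrc in bur bone. Of 12 tested beta-catenin partners, 7 were higher and 2 lower in laser, and 9 higher and 3 lower in bur bone (medians 0.72 in laser and 0.76 in bur bone). Bcl9 and Pygo1, beta-catenin co-activators, rose by 1.27 and 1.66 in laser and 1.26 and 1.38 in bur bone, and Tcf7l2, a nuclear partner of beta-catenin, rose by 0.84 in laser and 1.14 in bur bone. Lef1, another such partner, was lower, with log2 fold changes of -1.92 in laser and -1.84 in bur bone (adjusted p = 0.00393 and 0.00488, limma).

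Among 11 tested feedback and target genes, which share Tcf7, Lef1 and Znrf3 with the lists above, 7 were higher and 1, Lef1, lower in each wound (medians 0.90 in laser and 0.79 in bur bone). Ccn4, a secreted matrix protein induced by Wnt1 in mouse cells, rose by 2.13 in laser and 1.70 in bur bone, Ccnd1, cyclin D1, by 1.71 in laser and 0.94 in bur bone, and the Dishevelled inhibitor Nkd2 by 0.94 in laser and 0.96 in bur bone. Axin2, the widely used feedback target, had log2 fold changes of 0.29 in laser and 0.32 in bur bone and did not pass (adjusted p = 0.182 and 0.146, limma). Of 11 tested planar polarity genes, 3 were higher and 3 lower in laser, and 4 higher and 1 lower in bur bone, again near the shares of all genes for higher calls (medians 0.23 in laser and -0.057 in bur bone). The membrane proteins Vangl1 and Vangl2 rose by 1.09 and 1.07 in laser and by 1.08 and 0.94 in bur bone. The formin Daam2 rose by 0.80 in laser and 0.91 in bur bone, while its relative Daam1 had -0.83 in laser and -0.87 in bur bone. In laser against bur, 0 genes of these 7 lists passed by limma, where 0.00435% of all tested genes did.

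Markers of cell types differed from control bone in both directions. Their counts stand beside 32.2% higher and 17.6% lower in laser and 32.7% higher and 18.3% lower in bur bone over all tested genes. All 10 osteoblast markers were above background on all 12 arrays, and 10 were higher in laser and 8 in bur bone. Their mean log2 signal was 6.48 to 6.69 on laser and 6.24 to 6.65 on bur arrays, against 4.99 to 5.52 on control arrays. Of 7 tested osteocyte markers 6 were higher and 1 lower in laser, and 7 higher in bur bone, with means of 2.39 to 2.92 on laser, 2.36 to 3.09 on bur and 0.74 to 1.35 on control arrays. Marrow and blood markers went the other way. Of 8 erythroid markers 7 were lower in each wound, at -0.97 to 2.54 on laser, 0.76 to 2.86 on bur and 3.83 to 4.59 on control arrays. Of 8 neutrophil markers 6 were lower in each, at 1.16 to 2.83 on laser, 1.02 to 2.95 on bur and 3.99 to 4.32 on control arrays. Of 8 neural and glial markers 7 were lower in each, at -5.03 to -3.77 on laser, -5.45 to -1.29 on bur and -2.66 to 0.28 on control arrays. Of 8 periosteal and fibroblast markers 4 were higher and 0 lower in each, at 3.13 to 3.83 on laser, 3.51 to 3.89 on bur and 2.13 to 3.15 on control arrays. All 8 cell cycle markers and 5 of 8 monocyte and macrophage markers were lower in each. B cell markers were lower for 6 of 8 in laser and 5 in bur bone, adipocyte markers for 4 and 5 of 5. Of 8 endothelial markers 1 was higher and 1 lower in laser, and 2 higher and 1 lower in bur bone. Of 5 keratinocyte markers 3 were higher and 1 lower in each, and 0 of 8 muscle markers passed. The part of these shifts in the Wnt, Frizzled and Lrp values was not tested.

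The authors' deposited tables of their own comparisons list 24 of the 35 genes. In the authors' deposited table for laser against control 13 were higher and 1, Wnt6, lower (log2 fold change -0.47, adjusted p = 0.0221). In the authors' deposited table for bur against control 13 were higher and 1, Rspo1, lower (-0.39, adjusted p = 0.0410), and in that for laser against bur 0 passed. Lrp5 was 1.30 and 1.42 higher there on the log2 scale in laser and bur against control.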

How the data were processed

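Each array's spot intensity values were deposited by the authors as scanner output of Agilent Feature Extraction 11.0.1.1, as the file headers name it, and the processed signal used here has its background removed. Also deposited are the authors' quantile-normalized log2 values and, for each of their comparisons, fold changes on the log2 scale, p-values and adjusted values, from a model the sources do not describe. Probe coordinates are on RGSCv3.4, per the file headers.

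Samples were grouped by their titles. Processed signals were turned into log2 values, control and outlier spots dropped, spots of a probe averaged (45598 probes), and each array's 75th percentile subtracted. Of the probes 21184 (46.5%) were named by accession through RefSeq GRCr8 and the rest by the array's own names. Of the 51 probes described here 46 matched RefSeq, with 0 names in conflict. One probe stood for each gene, and 22977 genes passed the filter. limma 3.58.1 in R 4.3.3 fitted all 12 arrays, with group means as coefficients, and its p-values, all two-sided, were adjusted by Benjamini-Hochberg over the tested genes. The script was tested on simulated data. The labels' numbers 1 to 4 were not used as pairs.

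Every gene chosen is named. Full values are given by rule for Lrp5, Lrp6 and, in each comparison with control, the 4 called genes with the highest and the 4 with the lowest log2 fold change. Values of other genes were added after they were seen. From each pathway list the 3 genes with the smallest adjusted p are named. The genes, the pathway lists and the marker lists were chosen with earlier results of these data known. Alternatives covered normalization, background correction, filters, probe choice, blocks, weights and leaving out each array.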

Additional observations from a re-analysis of the deposited data

Results flagged for a closer look

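Across the 35 genes, 88 groups of 4 arrays with at least 1 array above background were searched for an array far from the other 3, and 7 arrays were found. Chance alone gives about 1 such group in 20. Fzd5 measured 6.93 on the second laser array, where its 3 companions of that group had -7.33 to -5.47, and it was above background on no other array. The fourth bur array had an Lrp5 value of 2.58, above the 2.00 to 2.08 of the other bur arrays. The first control array had an Lrp5 value of 0.86, above the 0.60 to 0.63 of the other control arrays. Rspo4 measured -3.02 on the first bur array, with the others at -3.67 to -3.56, and Wnt3a measured -3.68 on the second bur array, with the others at -4.80 to -4.64. Wnt7b was lowest on the fourth bur array at -4.37, with the others at -3.77 to -3.75. Wnt8b measured -3.67 on the second control array, with the others at -6.78 to -6.46. Each stood out because its gap to the nearest array of its group was large against the range of that group. Fzd5, Wnt3a and Wnt8b were below the filter and entered no comparison.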

How the results depend on the processing

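The count of genes higher in laser bone than in control, 17, was 12 to 18 under the alternatives run other than 2. The authors' deposited normalized table, which holds 23 of the genes, gave 11, and the treated arrays of slide 2 alone gave 10, against 17 for slide 1 alone. The count called in bur bone, 18, was 12 to 20. That included 1 lower call, of Rspo1, under normexp, the authors' table, cyclic loess, slide 1 alone and without bur array 3. Both single-slide settings and cyclic loess were chosen after seeing the data. Leaving out each array in turn gave 15 to 18 in laser and 16 to 20 in bur bone. Over all genes tested in each alternative, the share called ran from 31.1% to 55.4% in laser and from 31.8% to 56.2% in bur bone. Laser against bur gave 0 throughout, while over all genes it gave 0 to 10, the 10 with slide as a block and 5 with normexp. With the replicate number as a block the counts were 18 in laser and 19 in bur bone. Deviations of samples with the same number correlated at 0.045 to 0.57 between laser and bur, 0.085 to 0.39 between laser and control and 0.094 to 0.26 between bur and control. The sample of the same number was the best match for 9 of 12 pairs, a hint from the data, and since values under 0.1 occurred in every comparison, the numbers were not taken as pairs. Laser and bur arrays of the same number also shared a slide, so number and slide are mixed in their correlations. The replicate block added calls of Wnt7a in laser bone and of Wnt4 and Wnt10b in bur bone, and Fzd1 was not called with it in bur bone. With slide as a random block the counts were 14 in laser and 15 in bur bone. For Wnt7b in bur bone normexp gave -0.058. Under normexp Fzd7, Wnt2 and Wnt7b lost their calls in both comparisons, Wnt9b and Wnt10b in laser and Fzd6, Fzd9, Wnt7a and Wnt11 in bur bone, and the cause was not tested. Calls were kept in 27 of 27 alternatives in both comparisons for Fzd3, Fzd8, Fzd10, Lrp5, Wnt1 and Wnt5a. For Fzd3, Fzd10, Lrp5 and Wnt1 only 1 probe passed the filter, so no second probe bears on these calls. Signal over background limits the 7 untested genes and the dimmest tested ones.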
